A study of Mus musculus with 4 samples.

Results

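Mitosis and spindle genes encode the machinery that a cell builds to enter mitosis, to capture and hold its chromosomes, to pull them apart and to divide. The 40 genes described here are a list of symbols that sets no threshold on measured values, drawn up with earlier results of these data known: CDK1 with its cyclins and activators, the mitotic kinases, the chromosomal passenger and checkpoint proteins, the proteins of anaphase, centromere, spindle and chromosome structure, and those of cytokinesis. All 40 were found, of 17008 genes with a uniquely mapped read in any library, and all 40 had reads in each of the 4 libraries. The RNA came from macrophages sorted from the bone marrow (BM) and spleen of C57BL/6J mice, and the series asks how macrophages in T cell acute lymphoblastic leukaemia (T-ALL) compare with those of homeostasis.

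The T-ALL BM and T-ALL spleen libraries came from leukaemic mice at day 21 after a transplant. The recipients were 6 to 8 weeks old and received GFP+ leukaemia cells with no irradiation beforehand, so the host kept its own blood cells. The normal BM and normal spleen libraries are those of day 0, from C57BL/6J mice labelled with the same age. The sources used here do not give the markers of the sort, the oncogene behind the leukaemia, the sex of the mice or whether mice were pooled. Each group is 1 library. Differences therefore stand without a replicate check, and there are no p-values.

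The unit is CPM, the uniquely mapped reads of a gene scaled to a library of 1000000 reads. Library totals were 9.40 and 9.16 times 1000000 reads for T-ALL BM and T-ALL spleen, and 9.81 and 8.98 times 1000000 for normal BM and normal spleen, so that 1 read was worth 0.101 to 0.112 CPM. The call rule asks for a difference of 2-fold or more on log2(CPM + 1) and for 10 CPM in the higher library, and all 40 genes reached that level in each comparison. A fold written as such is a ratio of CPM, and the values in parentheses after it are its 95% interval, which covers counting error alone and not the spread between mice.

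The libraries hold RNA of other cells besides macrophages, and their makeup differed. All 18 macrophage markers on the list used (Csf1r, Emr1, Cd68, Mertk and others) had reads in each library. Their summed level was 11371 CPM in T-ALL BM against 4048 CPM in normal BM, and 5818 CPM in T-ALL spleen against 10565 CPM in normal spleen. Lyz2 alone had 5494 CPM of the sum in T-ALL BM, against 241 CPM in T-ALL spleen and 946 CPM in normal spleen. In normal BM several stood near 0, among them Mertk at 3.65 CPM, Spic at 4.36 CPM and Marco with 1 read, while 14 neutrophil precursor genes summed to 40601 CPM there. Of the 18 markers, 16 were called higher in normal spleen than in normal BM and 2 lower, where 16.1% of all genes were called higher and 14% lower. The X-linked transcript Xist had 0.644 CPM in T-ALL BM against 861 CPM in normal BM, and 416 CPM in T-ALL spleen against 849 CPM in normal spleen. Y-linked Ddx3y had 93.8 CPM in T-ALL BM and 57.6 CPM in T-ALL spleen, against 0 reads in both normal libraries. T-ALL BM thus had the Y-linked transcript with almost no Xist, T-ALL spleen had both, and the normal libraries had Xist alone. Sex therefore cannot be told apart from leukaemia in the comparisons of T-ALL with normal. The T-ALL libraries also differed from each other in these transcripts, so sex cannot be told apart from organ between them either.

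Most of these genes are silent in cells that do not divide and are transcribed together late in the cell cycle, from S phase into mitosis. Their transcription depends on B-MYB and FOXM1 with the MuvB complex, which binds the cell cycle genes homology region (CHR), and on NF-Y at CCAAT boxes, and their level in a tissue is widely used as a measure of how much of it is cycling. Tissue macrophages divide little in health, whereas marrow precursors and leukaemia cells divide often. In bulk RNA, fewer dividing cells and less of each transcript per dividing cell cannot be told apart.

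The 40 genes together took 0.488% of the reads in T-ALL BM against 0.772% in normal BM, and 0.536% in T-ALL spleen against 0.161% in normal spleen. Summed, they reached 4925 CPM in T-ALL BM and 7686 CPM in normal BM, 1.56-fold lower with leukaemia (1.54 to 1.58). In the spleen the sums were 5315 CPM with T-ALL and 1616 CPM in normal mice, 3.29-fold higher with leukaemia (3.23 to 3.35). Normal spleen stood 4.76-fold below normal BM (4.67 to 4.84). T-ALL spleen stood 1.08-fold above T-ALL BM (1.07 to 1.09), but 1.27-fold below it with libraries scaled on the reads of 33 ribosomal protein genes, a setting chosen after the data were seen.

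**Figure D1:**
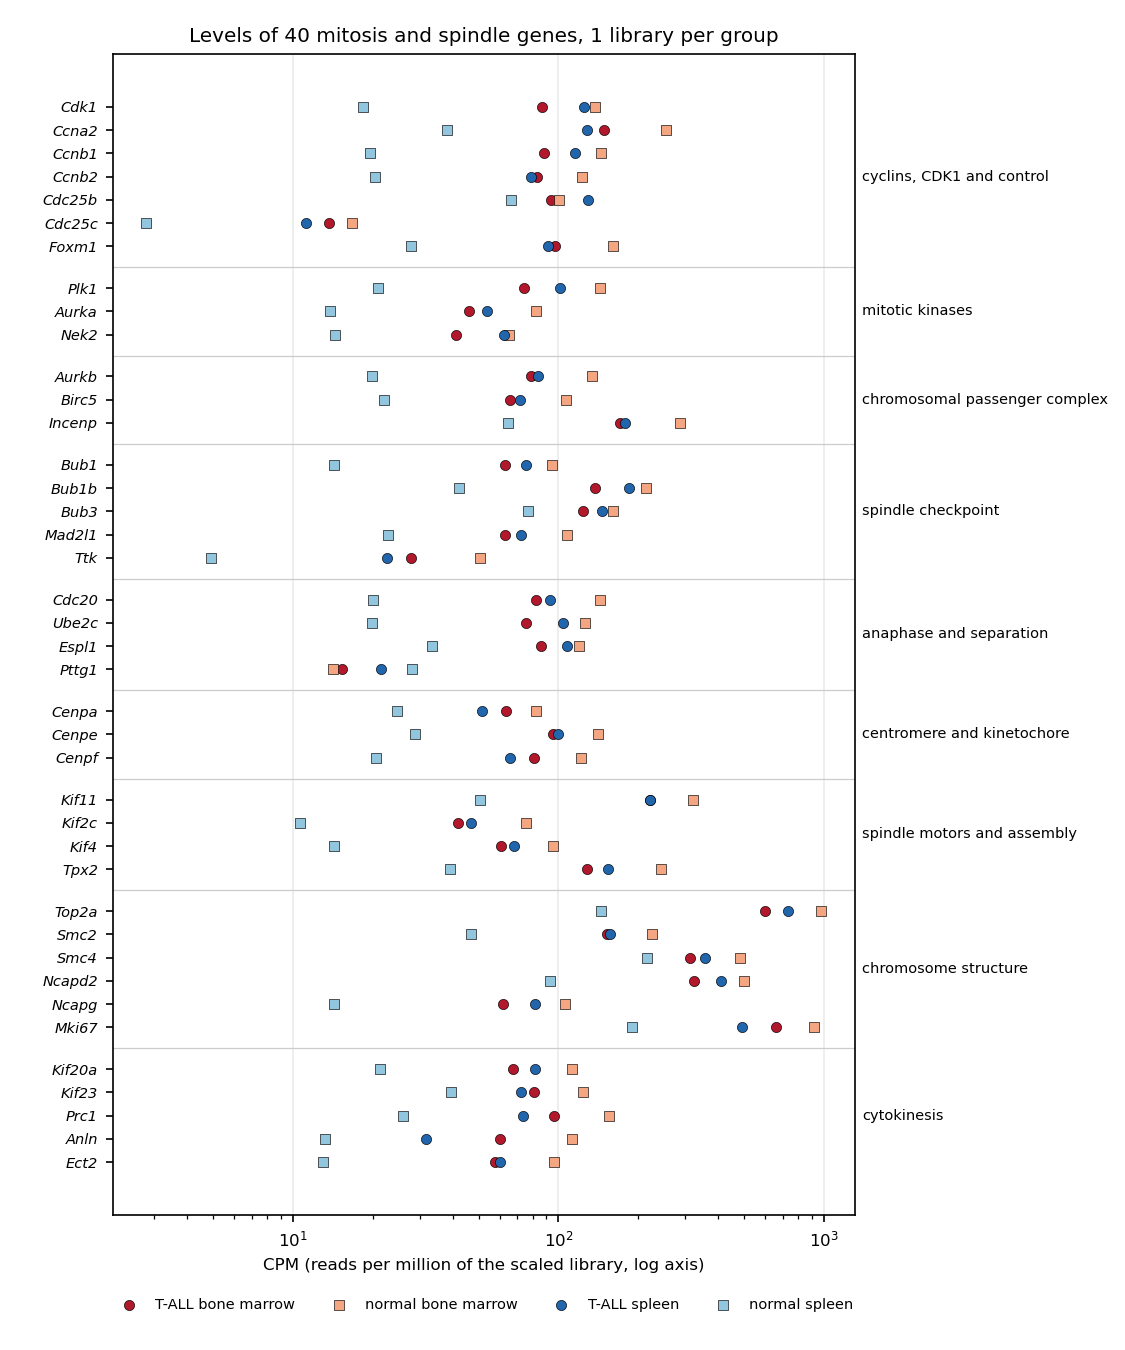
Level of each of the 40 genes in the 4 libraries, in CPM on a log axis, 1 point per library, grouped by role. Normal spleen (light blue squares) is the lowest point for every gene but Pttg1, where it is the highest at 28.0 CPM; the points of Kif11 in the T-ALL libraries coincide.

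Single genes repeated this order with few exceptions. For 27 genes the order from high to low was normal BM, T-ALL spleen, T-ALL BM, normal spleen. For 11 genes the middle places were exchanged, so that T-ALL BM stood above T-ALL spleen. Cdc25b alone was highest in T-ALL spleen. Pttg1 alone ran the other way, from normal spleen at the top down through T-ALL spleen and T-ALL BM to normal BM. Between the leukaemic organs the places are often unsettled by counting, since for 11 of the 40 genes the interval of the ratio held 1.

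In T-ALL spleen against normal spleen, 35 of the 40 genes were called higher and none lower, where 10.3% of all 9774 genes tested were called higher and 11% lower. Their median log2 fold was 1.89, against -0.08 over all genes tested. At a 4-fold threshold 16 of the 40 were still called higher, where 2.41% of all genes were. With ribosomal protein scaling 32 of the 40 were called higher and none lower, where 5.48% of all genes were called higher and 22.2% lower. The 5 genes under 2-fold were Cdc25b, Bub3, Smc4, Kif23 and Pttg1. T cell markers moved the same way: 13 of 15 were called higher, and they summed to 4095 CPM in T-ALL spleen against 1233 CPM in normal spleen, a 3.32-fold ratio. Their part in the result was not tested.

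In T-ALL BM against normal BM none of the 40 genes was called in either direction, where 8.01% of all 9716 genes tested were called higher and 1.03% lower. The differences were smaller than 2-fold but ran 1 way: 39 genes were below normal BM and the interval excluded 1 for 37 of them. The median log2 fold was -0.67, against -0.04 over all genes tested. At a 1.5-fold threshold 28 of the 40 were called lower and none higher, where 7.09% of all genes were called lower and 14.1% higher. Beside this, 9 of 14 neutrophil precursor genes were called lower and none higher. The 14 summed to 22179 CPM in T-ALL BM against 40601 CPM in normal BM, 1.83-fold lower. Elane, Prtn3, Mpo and Ms4a3 fell most, by 3.66-fold to 4.85-fold. T cell markers went the other way, with 14 of 15 called higher and a sum of 879 against 230 CPM. The part of these genes in the result was not tested.

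In normal spleen against normal BM, 38 of the 40 genes were called lower and none higher, where 14% of all 10072 genes tested were called lower and 16.1% higher. The median log2 fold was -2.51, against -0.04 over all genes tested, and 33 of the 40 were lower by 4-fold or more, where 5.81% of all genes were. All 14 neutrophil precursor genes were called lower too, with a sum of 476 CPM in normal spleen against 40601 CPM in normal BM. Of 9 progenitor genes that reached 10 CPM, 7 were called lower and 1 higher. T cell markers went the other way, with 14 of 15 called higher. The part of these genes in the result was not tested. This comparison shares its normal spleen library with the leukaemic spleen comparison, so the low values of that library enter both.

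In T-ALL spleen against T-ALL BM none of the 40 genes was called, where 5.44% of all 9852 genes tested were called higher and 11% lower. The median log2 fold was 0.17, against 0.01 over all genes tested, with 29 genes above 0 and 11 below. At a 1.5-fold threshold only Nek2 was called higher and only Anln lower, where 14.1% of all genes were called higher and 19.1% lower. That direction depended on the scaling: with ribosomal protein scaling 6 genes were above 0 and 34 below, and the median was -0.27. Under that scaling Anln alone was called lower and none higher, where 20.1% of all genes were called lower and 2.91% higher. The neutrophil precursor sum was 210 CPM in T-ALL spleen against 22179 CPM in T-ALL BM and the T cell sum was 4095 against 879 CPM, so similar levels of the 40 genes stood beside unlike markers of other cells.

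**Figure D2:**
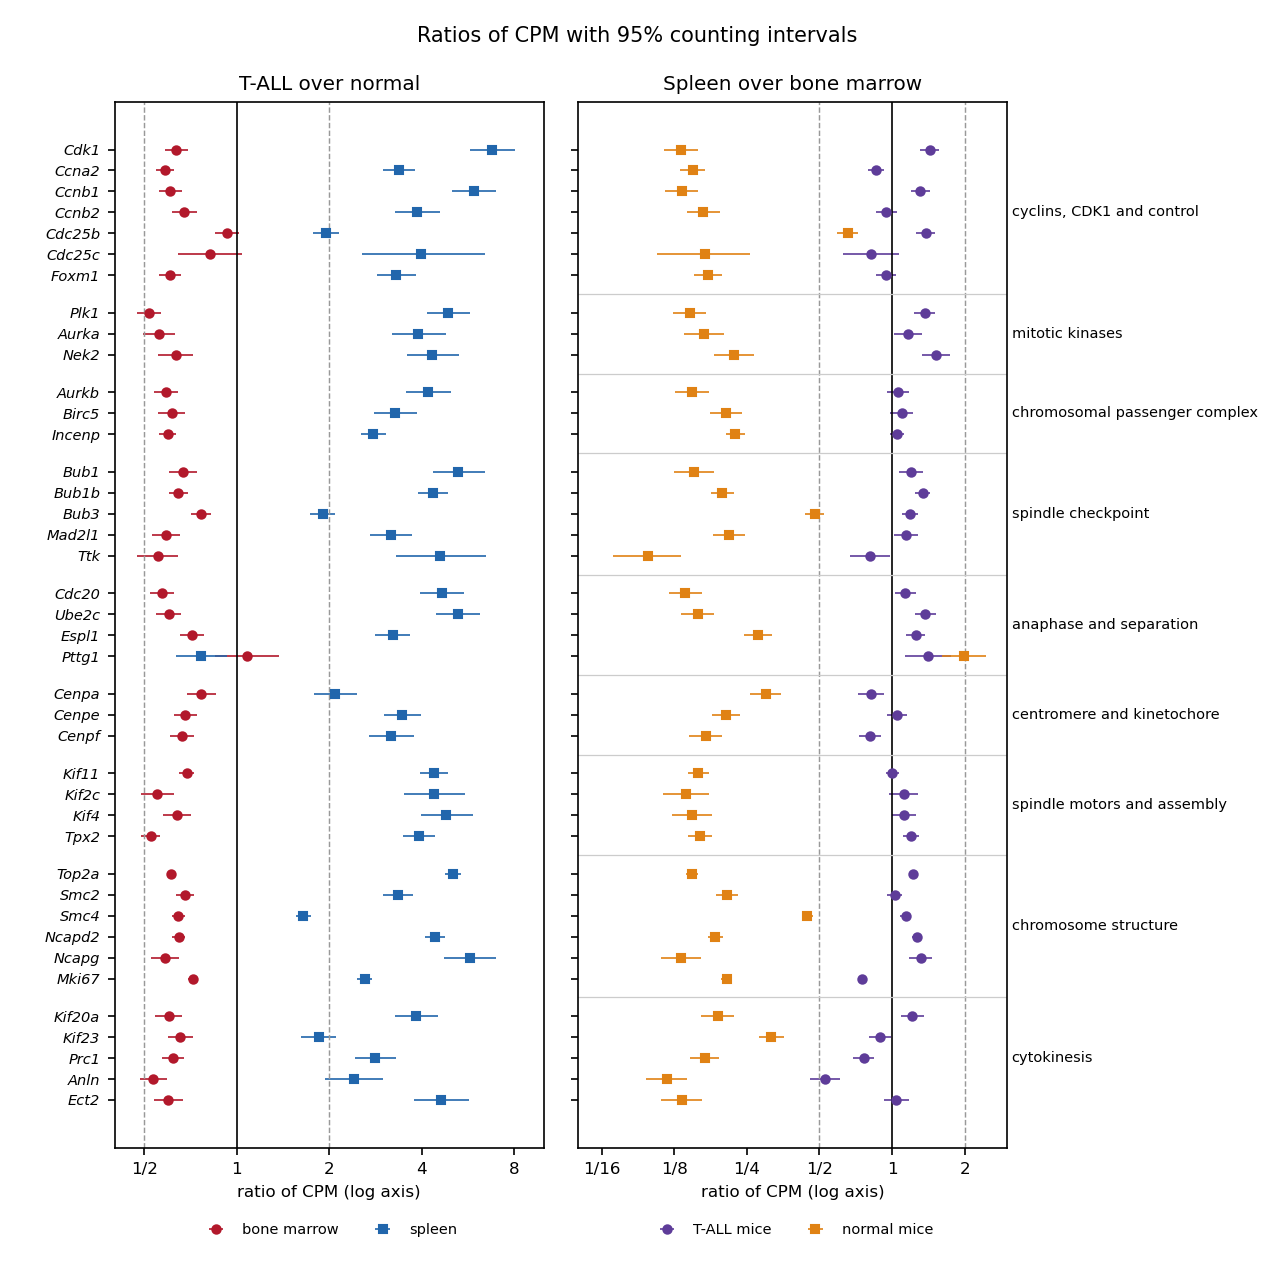
Ratio of CPM for each gene with its 95% counting interval, on a log axis; the left panel is T-ALL over normal in bone marrow and spleen, the right panel spleen over bone marrow in T-ALL and normal mice. Bone marrow ratios (red) lie below 1 for all but Pttg1 with no point past the 2-fold line, spleen ratios (blue) run up to 6.79 for Cdk1, and normal spleen over normal BM (orange) lies lowest for all but Pttg1, at 10.2-fold lower for Ttk.

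The start regions of these genes were examined because they moved together and because the elements that drive them in late cell cycle are known. RefSeq windows from 250 bases before to 50 bases after the annotated start (GRCm38.p6) were at hand for 32 of the 40 genes, 35 windows in all, since Bub3, Prc1 and Ect2 have 2 overlapping windows each. Both strands were searched for TTTGAA, the core of the CHR (TTCAAA on the other strand), for its variant TTCGAA, and for CCAAT, the core of the NF-Y box (ATTGG on the other strand). None of these motifs contains another. The TTTGAA hexamer was found in 27 of 35 windows, 77.1% (61.0 to 87.9, Wilson 95% interval), against 17.9% of 32851 windows of all genes. CCAAT was found in 30 of 35, 85.7% (70.6 to 93.7), against 37.4% of all windows. Both stood in 25 of 35, 71.4%, against 6.95%, and TTCGAA in 4 of 35, 11.4%, against 1.56%. The intervals treat the 35 windows as independent, which the overlapping pairs are not. Counted by gene, 24 of 32 had TTTGAA and 27 of 32 had CCAAT. Birc5, Mad2l1 and Pttg1 had neither in the window.

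The stretches below are the 120 bases that end at the base before the annotated start, read 5′ to 3′ on the gene's own strand. The first 6 are the genes with the highest log2 fold in T-ALL spleen among those with TTTGAA in the window. Ccnb1, which has CCAAT but no TTTGAA, and Pttg1, which has neither and did not follow the other genes, were added after their values were seen. Capitals mark TTTGAA or TTCAAA and CCAAT or ATTGG. The stretches lie at chr10:69352913-69353032 on the minus strand for Cdk1, chr5:45669805-45669924 on the plus strand for Ncapg, chr2:164769809-164769928 on the plus strand for Ube2c and chr11:99024190-99024309 on the minus strand for Top2a. Those of Plk1 and Kif4 lie at chr7:122159315-122159434 and chrX:100625945-100626064, both on the plus strand. Those of Ccnb1 and Pttg1 lie at chr13:100786487-100786606 and chr11:43425982-43426101, both on the minus strand.
Cdk1: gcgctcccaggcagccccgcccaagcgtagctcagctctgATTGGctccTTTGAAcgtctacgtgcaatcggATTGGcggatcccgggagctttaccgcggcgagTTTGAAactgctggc
Ncapg: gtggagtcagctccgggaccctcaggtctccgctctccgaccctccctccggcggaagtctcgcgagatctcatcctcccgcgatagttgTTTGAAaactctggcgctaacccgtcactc
Ube2c: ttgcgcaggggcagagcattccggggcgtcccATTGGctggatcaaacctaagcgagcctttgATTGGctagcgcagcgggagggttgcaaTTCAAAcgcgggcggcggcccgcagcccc
Top2a: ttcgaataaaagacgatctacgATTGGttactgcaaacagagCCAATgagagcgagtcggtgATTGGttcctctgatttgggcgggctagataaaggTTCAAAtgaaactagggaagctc
Plk1: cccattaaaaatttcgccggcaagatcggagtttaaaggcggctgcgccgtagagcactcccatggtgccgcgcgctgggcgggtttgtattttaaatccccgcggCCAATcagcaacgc
Kif4: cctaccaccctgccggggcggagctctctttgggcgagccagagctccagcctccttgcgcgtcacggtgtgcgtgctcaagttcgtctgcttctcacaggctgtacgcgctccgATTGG
Ccnb1: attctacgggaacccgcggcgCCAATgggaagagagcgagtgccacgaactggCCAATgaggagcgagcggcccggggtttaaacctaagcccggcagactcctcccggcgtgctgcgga
Pttg1: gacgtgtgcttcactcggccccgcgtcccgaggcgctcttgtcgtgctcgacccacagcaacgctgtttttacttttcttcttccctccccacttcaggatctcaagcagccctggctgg

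In Cdk1 a TTTGAA lies 15 bases before the start, with CCAAT boxes at 48 and 80 bases before it. Ncapg and Ube2c have the hexamer at 30 and 29 bases before the start, and Top2a at 23, behind boxes at 58, 78 and 98. The hexamers of Plk1 and Kif4 lie after the start, at 31 and 20, and so are not in the stretch shown. A match is a description of the letters, and binding was not measured here.

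**Figure D3:**
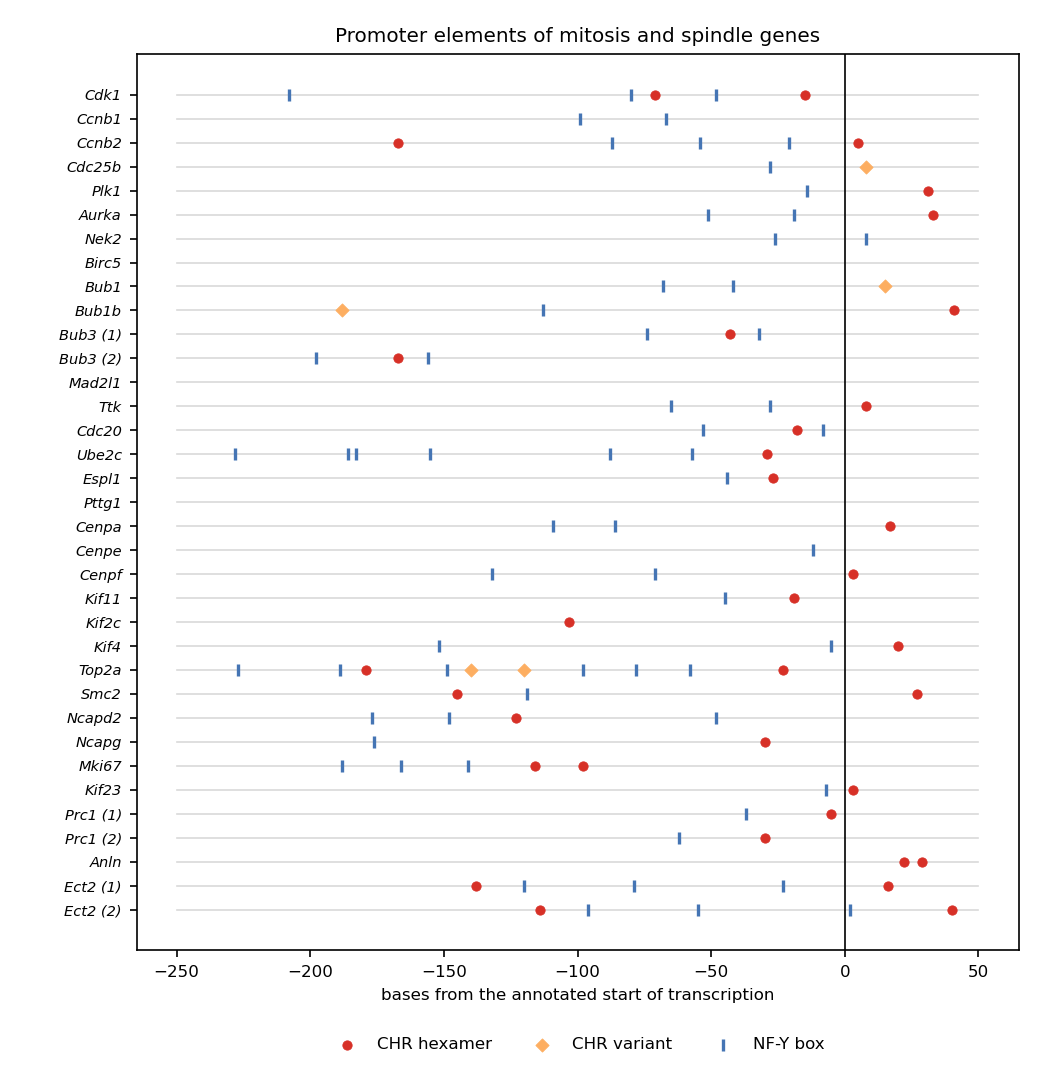
Place of each CHR hexamer (red circles), CHR variant (orange diamonds) and NF-Y box (blue bars) in the 35 windows of 32 genes, in bases from the annotated start of transcription. The hexamers lie on both sides of the start, while the NF-Y boxes lie before it except for 1 each in Nek2 and Ect2; the rows of Birc5, Mad2l1 and Pttg1 are empty.

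Entry into mitosis is driven by CDK1, the kinase bound by cyclins A2, B1 and B2 and activated by the CDC25 phosphatases, with FOXM1 as a transcription factor for the set. Of these 7 genes, 6 were called higher in T-ALL spleen, where 10.3% of all genes were. In counts of genes below, rose and fell mean called higher and called lower. Cdk1 had 87.0 CPM in T-ALL BM against 137 CPM in normal BM, and 125 CPM in T-ALL spleen against 18.3 CPM in normal spleen. It was 6.79-fold higher in T-ALL spleen (5.76 to 8.05), the highest ratio of the 40, and 1.57-fold lower in T-ALL BM (1.44 to 1.72). Its partner Ccnb1, cyclin B1, had 87.9 CPM in T-ALL BM against 145 CPM in normal BM and 115 CPM in T-ALL spleen against 19.5 CPM in normal spleen, a ratio of 5.91 in the spleen (5.03 to 6.98). Ccna2, cyclin A2, which also acts in S phase, had 149 CPM in T-ALL BM against 255 CPM in normal BM and 128 CPM in T-ALL spleen against 38.0 CPM in normal spleen. So Cdk1 and Ccnb1 differed more in the spleen than cyclin A2 did, at 3.37-fold (2.98 to 3.81), and the intervals did not overlap. Ccnb2 rose 3.87-fold in the spleen and Foxm1 3.30-fold.

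The CDC25 phosphatases, which remove inhibitory phosphates from CDK1, stood apart from each other. Cdc25b had 93.6 CPM in T-ALL BM against 101 CPM in normal BM and 129 CPM in T-ALL spleen against 66.0 CPM in normal spleen. Its spleen ratio of 1.95 (1.77 to 2.16) was just under the threshold, and the interval of its BM ratio held 1. Cdc25c was the lowest of the 40 in CPM in T-ALL BM, T-ALL spleen and normal spleen, with 13.6 CPM in T-ALL BM against 16.6 CPM in normal BM. In the spleen it had 103 reads with T-ALL against 25 reads in normal mice, 11.2 against 2.80 CPM, so that its ratio of 3.99 has a wide interval (2.56 to 6.44).

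The mitotic kinases Plk1, Aurka and Nek2 ripen and separate the centrosomes and build the spindle poles. All 3 were called higher in T-ALL spleen, where 10.3% of all genes were. Plk1, polo-like kinase 1, had 74.3 CPM in T-ALL BM against 144 CPM in normal BM, and 101 CPM in T-ALL spleen against 20.8 CPM in normal spleen. Its BM ratio, 1.94-fold lower (1.77 to 2.12), was the lowest of the 40 genes, and its spleen ratio was 4.88 (4.16 to 5.74). Aurka, aurora kinase A, had 46.0 against 82.6 CPM in T-ALL and normal BM and 53.7 against 13.8 CPM in T-ALL and normal spleen. Nek2, which loosens the link between centrosomes, had 62.5 CPM in T-ALL spleen against 41.1 CPM in T-ALL BM. That 1.52-fold difference between the leukaemic organs (1.33 to 1.73) was the largest in favour of the spleen.

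The chromosomal passenger complex corrects faulty attachments of chromosomes to the spindle and later marks the site of division; its kinase is Aurkb, its scaffold Incenp and its survivin subunit Birc5. All 3 genes were called higher in T-ALL spleen, where 10.3% of all genes were. Aurkb had 79.1 CPM in T-ALL BM against 134 CPM in normal BM, and 83.6 CPM in T-ALL spleen against 19.9 CPM in normal spleen, 4.198-fold higher (3.56 to 4.97). Incenp had 179 CPM in T-ALL spleen against 64.3 CPM in normal spleen, 2.78-fold higher (2.53 to 3.06). The BM ratios of the 3 lay close together, from 1.63-fold lower for Birc5 to 1.70-fold lower for Aurkb, and their intervals overlapped.

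The spindle checkpoint delays anaphase until each chromosome is attached, through the kinases TTK and BUB1, the pseudokinase BUBR1 (Bub1b) and MAD2 (Mad2l1) and BUB3, which help to hold CDC20 inactive. Of its 5 genes 4 were called higher in T-ALL spleen, where 10.3% of all genes were. All 5 were called lower in normal spleen than in normal BM, where 14% of all genes were. Bub1 had 63.1 CPM in T-ALL BM against 94.8 CPM in normal BM, and 75.5 CPM in T-ALL spleen against 14.3 CPM in normal spleen, a spleen ratio of 5.27 (4.36 to 6.41). Bub1b had 184 CPM in T-ALL spleen against 42.3 CPM in normal spleen, a ratio of 4.36 (3.90 to 4.88). Ttk had 4.92 CPM, or 44 reads, in normal spleen against 50.4 CPM in normal BM, 10.2-fold lower (7.52 to 14.3) and the largest such fall among the 40. Bub3, which also has roles outside mitosis, differed least of the 5. It had 123 CPM in T-ALL BM against 161 CPM in normal BM, and 146 CPM in T-ALL spleen against 77.0 CPM in normal spleen, a ratio of 1.90 (1.74 to 2.09).

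Anaphase begins when CDC20 activates the anaphase-promoting complex, for which UBE2C supplies ubiquitin; securin (Pttg1) is destroyed and frees separase (Espl1) to cut cohesin. Ube2c had 75.8 CPM in T-ALL BM against 126 CPM in normal BM and 104 CPM in T-ALL spleen against 19.8 CPM in normal spleen, a spleen ratio of 5.25 (4.47 to 6.20). Cdc20 had 82.1 CPM in T-ALL BM against 144 CPM in normal BM and 93.0 CPM in T-ALL spleen against 20.02 CPM in normal spleen, a spleen ratio of 4.64 (3.95 to 5.49). Espl1 rose 3.22-fold in T-ALL spleen (2.82 to 3.68).

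Pttg1 was the exception among the 40. It had 15.2 CPM in T-ALL BM against 14.1 CPM in normal BM, with 142 against 139 reads and a ratio whose interval held 1. In the spleen it had 21.4 CPM with T-ALL against 28.0 CPM in normal mice, a ratio of 0.767 (0.633 to 0.927). It was 1.98-fold higher in normal spleen than in normal BM (1.61 to 2.46), where its target Espl1 was 3.59-fold lower (3.16 to 4.09). Its share of the reads of the 40 genes was 1.73% in normal spleen, against 0.183% to 0.403% in the other libraries. Its deposited coverage was 66.3% and 67.1% in T-ALL BM and T-ALL spleen and 58.9% and 73.5% in normal BM and normal spleen. It was the least covered of the 40 genes in T-ALL BM and in normal BM, where the next lowest had 68.9% and 68.8%, while in normal spleen Cdk1 was lower, at 43.4%.

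At the centromere, CENPA is the histone H3 variant that marks the site, CENPE a motor that carries chromosomes to the spindle's middle, and CENPF a large protein of the outer kinetochore. All 3 were called higher in T-ALL spleen, where 10.3% of all genes were, and Cenpa differed least. Cenpa had 63.2 CPM in T-ALL BM against 82.6 CPM in normal BM, and 51.7 CPM in T-ALL spleen against 24.7 CPM in normal spleen, a ratio of 2.09 (1.78 to 2.47). Cenpe had 99.7 CPM in T-ALL spleen against 28.9 CPM in normal spleen, a ratio of 3.46 (3.01 to 3.98). Cenpf had 65.5 CPM in T-ALL spleen against 20.6 CPM in normal spleen, a ratio of 3.18 (2.69 to 3.77).

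Spindle assembly uses KIF11, the motor that pushes the poles apart, KIF2C, which takes microtubules down at faulty attachments, the chromosome-bound motor KIF4, and TPX2, which activates aurora A and seeds microtubules. These 4 genes moved within a narrow range. In T-ALL spleen against normal spleen their ratios ran from 3.92 for Tpx2 to 4.81 for Kif4. In normal spleen against normal BM they ran from 6.26-fold to 7.13-fold lower. Kif11 had 221 CPM in T-ALL BM against 322 CPM in normal BM, and 222 CPM in T-ALL spleen against 50.7 CPM in normal spleen. The ratio of T-ALL spleen to T-ALL BM was 1.00 for Kif11 (0.943 to 1.07). Tpx2 had 128 CPM in T-ALL BM against 244 CPM in normal BM, 1.91-fold lower (1.78 to 2.05), next to Plk1 in the marrow order.

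Chromosome structure genes hold the most abundant members: Top2a, the topoisomerase that untangles sister DNA, the condensin subunits Smc2, Smc4, Ncapd2 and Ncapg, and Mki67, the Ki-67 protein that coats mitotic chromosomes. Top2a had 599 CPM in T-ALL BM against 979 CPM in normal BM, and 734 CPM in T-ALL spleen against 145 CPM in normal spleen, 5.06-fold higher (4.77 to 5.37). Mki67 had 659 CPM in T-ALL BM against 917 CPM in normal BM, and 494 CPM in T-ALL spleen against 189 CPM in normal spleen, 2.61-fold higher (2.47 to 2.76). Both rest on 1297 reads or more in each library, and their spleen intervals did not overlap, so the usual marker of dividing cells differed about as much as Incenp and much less than Top2a.

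The condensin subunits did not move alike in the spleen. Ncapg, of condensin I, had 81.4 CPM in T-ALL spleen against 14.2 CPM in normal spleen, 5.73-fold higher (4.74 to 6.97). Ncapd2, also of condensin I, had 410.2 CPM in T-ALL spleen against 93.0 CPM in normal spleen, 4.41-fold higher (4.09 to 4.76). Smc2, shared by both condensins, rose 3.35-fold (3.003 to 3.75). Its partner Smc4 had 357 CPM in T-ALL spleen against 216 CPM in normal spleen, a ratio of 1.65 (1.56 to 1.74), and 313 CPM in T-ALL BM against 485 CPM in normal BM. In the marrow the 4 subunits were alike, from 1.47-fold lower for Smc2 to 1.71-fold lower for Ncapg. Smc4 made up 13.4% of the reads of the 40 genes in normal spleen, against 6.31% to 6.71% in the other libraries.

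Cytokinesis genes build the central spindle (Prc1, Kif23, Kif20a) and the contractile ring (Anln, Ect2). In T-ALL spleen 4 of the 5 were called higher, where 10.3% of all genes were. Ect2, which activates RhoA at the cell's equator, had 60.1 CPM in T-ALL spleen against 13.0 CPM in normal spleen, 4.63-fold higher (3.78 to 5.71). Kif23, a subunit of centralspindlin, had 72.5 against 39.3 CPM in the same libraries, a ratio of 1.85 (1.62 to 2.11). Anln, anillin, the scaffold of the ring, had 60.3 CPM in T-ALL BM against 113 CPM in normal BM, and 31.7 CPM in T-ALL spleen against 13.2 CPM in normal spleen. It was 1.90-fold lower in T-ALL spleen than in T-ALL BM (1.65 to 2.20), the largest difference of the 40 between the leukaemic organs. Among the genes lower in T-ALL spleen than in T-ALL BM, Mki67 and Prc1 came next, 1.33-fold (1.28 to 1.39) and 1.31-fold (1.19 to 1.45) lower in T-ALL spleen.

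The T-ALL comparisons of BM and spleen share no library and can be set beside each other. The 39 genes other than Pttg1 were all below normal in T-ALL BM and above normal in T-ALL spleen, 97.5% of the 40, while 3190 of the 9178 genes at 10 CPM or more in both comparisons (34.8%) had that combination. The median over the 40 of the log2 fold in the spleen minus that in BM was 2.56, with the widest gap in Cdk1, at 3.35. With 1 library per group this difference between the organs was not tested.

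**Figure D4:**
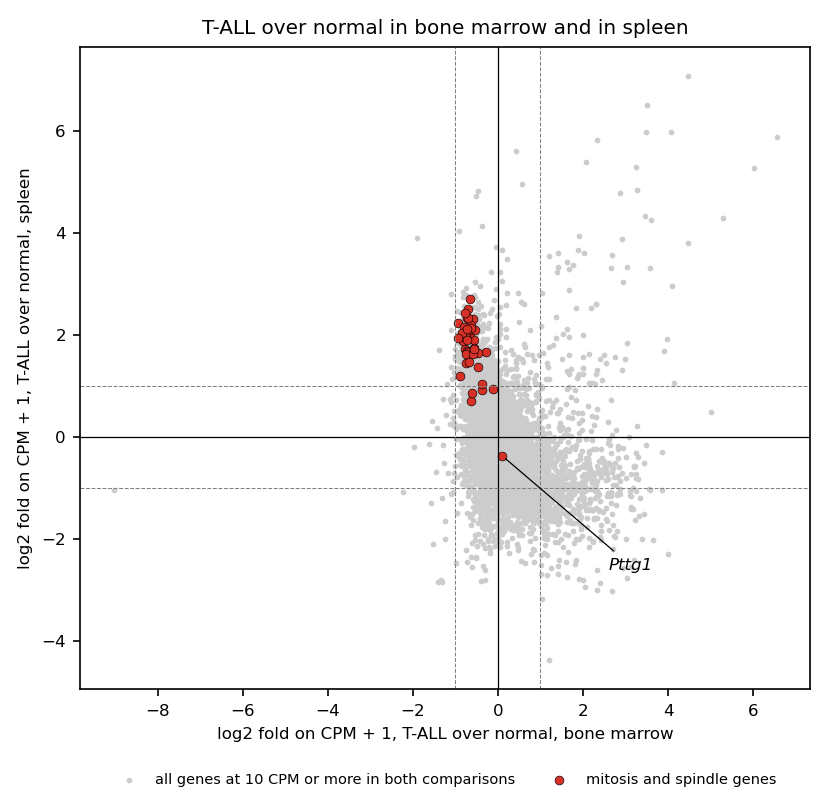
Log2 fold of T-ALL over normal on CPM + 1 in bone marrow (horizontal) and spleen (vertical), for the 40 genes (red) and all genes at 10 CPM or more in both comparisons (grey); dashed lines mark 2-fold. The 40 genes form a tight group left of 0 and above 0, except Pttg1, labelled, at 0.10 and -0.37.

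Compared per length, the make-up of the set was much the same in 3 libraries and different in normal spleen. The deposited RPKM (reads scaled by gene length and library total) of Top2a was the highest of the 40 in T-ALL BM, T-ALL spleen and normal BM, at 114, 142 and 188. In normal spleen Smc4 led with 52.5 RPKM, against 27.7 RPKM for Top2a. The rank of the 40 genes by RPKM gave a Spearman rho of 0.983 between T-ALL BM and normal BM and 0.964 between T-ALL BM and T-ALL spleen. With normal spleen rho was 0.807 to 0.859. These are descriptions across 40 genes of pairs of libraries, and gene length and sequence are shared by both members of each pair.

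A second list of 95 mitosis genes, of which 94 were found, gave a similar account. In T-ALL spleen 69 of 92 at 10 CPM or more rose and none fell, where 10.3% of all genes rose, among them Gtse1 (57.5 CPM with T-ALL against 9.51 CPM in normal spleen) and Trip13, which remodels checkpoint proteins (38.7 against 6.26 CPM). In T-ALL BM none of 93 rose and 2 fell, a share near the 1.03% of all genes that fell. These were Ccnf, cyclin F, with 50.01 CPM against 116 CPM in normal BM, and Fbxo5, the anaphase-promoting complex inhibitor EMI1, with 33.3 against 68.2 CPM. In normal spleen 78 of 93 were lower than in normal BM, where 14% of all genes were, with Pbk at 6.71 CPM in spleen against 82.0 CPM in BM and Ska1 at 1.90 against 22.4 CPM. Between the leukaemic organs 1 of 93 was higher in the spleen and none lower, where 5.44% of all genes were higher and 11% lower: Tubg1, gamma-tubulin of the centrosome, with 65.8 CPM in T-ALL spleen against 31.2 CPM in T-ALL BM.

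Cohesin genes hold sister chromatids together but also fold chromatin in resting cells. Of 10, 1 rose in T-ALL spleen, a share near the 10.3% of all genes: Esco2, the acetyltransferase that acts in S phase, with 33.1 CPM against 11.0 CPM in normal spleen. In T-ALL BM none was called, and the most abundant, Rad21, had 336 CPM against 462 CPM in normal BM. In normal spleen 4 of 10 were lower than in normal BM, where 14% of all genes were: Esco2, Rad21, Smc3 and Smc1a. Between the leukaemic organs none was called.

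DNA replication and S phase genes followed the mitosis genes in the comparisons of T-ALL with normal and of the normal organs, but less closely between the leukaemic organs. In T-ALL spleen 38 of 43 rose and none fell, where 10.3% of all genes rose, with Dut, the dUTPase, at 265 CPM against 33.1 CPM in normal spleen. In T-ALL BM 1 of 44 fell, where 1.03% of all genes did, Ccne2, cyclin E2, with 12.9 CPM against 32.5 CPM in normal BM. In normal spleen 42 of 44 were lower than in normal BM, where 14% of all genes were, with Rrm2, the ribonucleotide reductase subunit, at 50.7 CPM in spleen against 387 CPM in BM. Between the leukaemic organs 1 of 44 was higher in the spleen and none lower, where 5.44% of all genes were higher and 11% lower. It was Dut, with 265 CPM in T-ALL spleen against 121 CPM in T-ALL BM. The replication sum was 1.35-fold higher in T-ALL spleen than in T-ALL BM, with a median log2 fold of 0.43. For the 40 mitosis genes these were 1.08-fold and 0.17. Ribosomal protein scaling was not tried for the replication list. Reads of the 40 mitosis genes relative to those of the 44 replication genes were 0.988 in T-ALL BM (0.975 to 1.00) against 0.967 in normal BM (0.957 to 0.977). In spleen the ratio was 0.787 with T-ALL (0.778 to 0.797) against 0.817 in normal mice (0.799 to 0.835). On deposited RPKM the order within BM turned round, at 0.677 with T-ALL against 0.682 in normal mice. Mitosis reads were lower relative to replication reads in both spleen libraries than in both BM libraries in either unit.

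Of 27 genes of G1 and inhibitors of the cell cycle, 24 reached 10 CPM in each comparison. In T-ALL spleen 4 of 24 at 10 CPM or more rose, where 10.3% of all genes did, led by Mybl2, the B-MYB factor of late cell cycle promoters, with 92.2 CPM against 15.9 CPM in normal spleen, then Cdk6 and Cdk4. Ccnd1, cyclin D1, alone fell, where 11% of all genes did, with 73.0 CPM in T-ALL spleen against 395 CPM in normal spleen. In T-ALL BM 3 of 24 rose and none fell, where 8.01% of all genes rose. They were the antiproliferative Btg2 (411 CPM against 93.7 CPM in normal BM) and Btg1 (655 against 192 CPM), and Cdkn1a, the CDK inhibitor p21 (48.4 against 21.6 CPM). In normal spleen against normal BM 3 of 24 rose and 8 fell, where 16.1% of all genes rose and 14% fell. In T-ALL spleen against T-ALL BM 1 of 24 rose and 1 fell, where 5.44% of all genes rose and 11% fell.

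Markers of other cells are given here for all lists, as the cells of origin of the mitosis reads were not measured. Genes of thymocytes and T-ALL summed to 697 CPM in T-ALL BM against 351 CPM in normal BM and 1586 CPM in T-ALL spleen against 601 CPM in normal spleen. Dtx1 alone had 320 CPM of the sum in normal spleen and 146 CPM of the sum in T-ALL BM. Of those at 10 CPM or more, 9 of 12 were called higher and 1 lower in T-ALL spleen, where 10.3% and 11% of all genes were. In T-ALL BM 6 of 11 were called higher and none lower, where 8.01% and 1.03% of all genes were. Heyl, a NOTCH target, had 61.6 CPM in T-ALL spleen against 1 read in normal spleen. The progenitor genes Kit, Cd34, Myb and others summed to 1208 CPM in T-ALL BM against 1666 CPM in normal BM, and to 497 CPM in T-ALL spleen against 403 CPM in normal spleen. That spleen sum hides opposite directions. Of 5 progenitor genes at 10 CPM or more, 2 rose in T-ALL spleen (Sox4 and Myb) and 2 fell (Flt3 and Kit). Of all genes 10.3% rose and 11% fell. Kit had 26.0 CPM in T-ALL spleen against 157 CPM in normal spleen, and Myb 287 against 49.4 CPM. B precursor genes summed to 473 CPM in T-ALL BM, 529 CPM in normal BM, 874 CPM in T-ALL spleen and 1775 CPM in normal spleen. Erythroid genes summed to 306 to 486 CPM. Dendritic cell genes summed to 585 CPM in T-ALL BM, 387 CPM in normal BM, 688 CPM in T-ALL spleen and 1851 CPM in normal spleen. Among the genes of these lists and of the G1 list, 0 reads were found for Cdkn2b in normal BM, Rag2 in normal spleen, Vpreb2 in T-ALL spleen and in normal spleen, Igll1 in normal spleen, and Mecom in T-ALL spleen. Ribosomal protein genes, the list used for the added scaling, had none called in any comparison, with a median log2 fold of 0.33 in T-ALL spleen against normal spleen and 0.45 in T-ALL spleen against T-ALL BM. The part of any of these cells in the result was not tested.

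**Figure D5:**
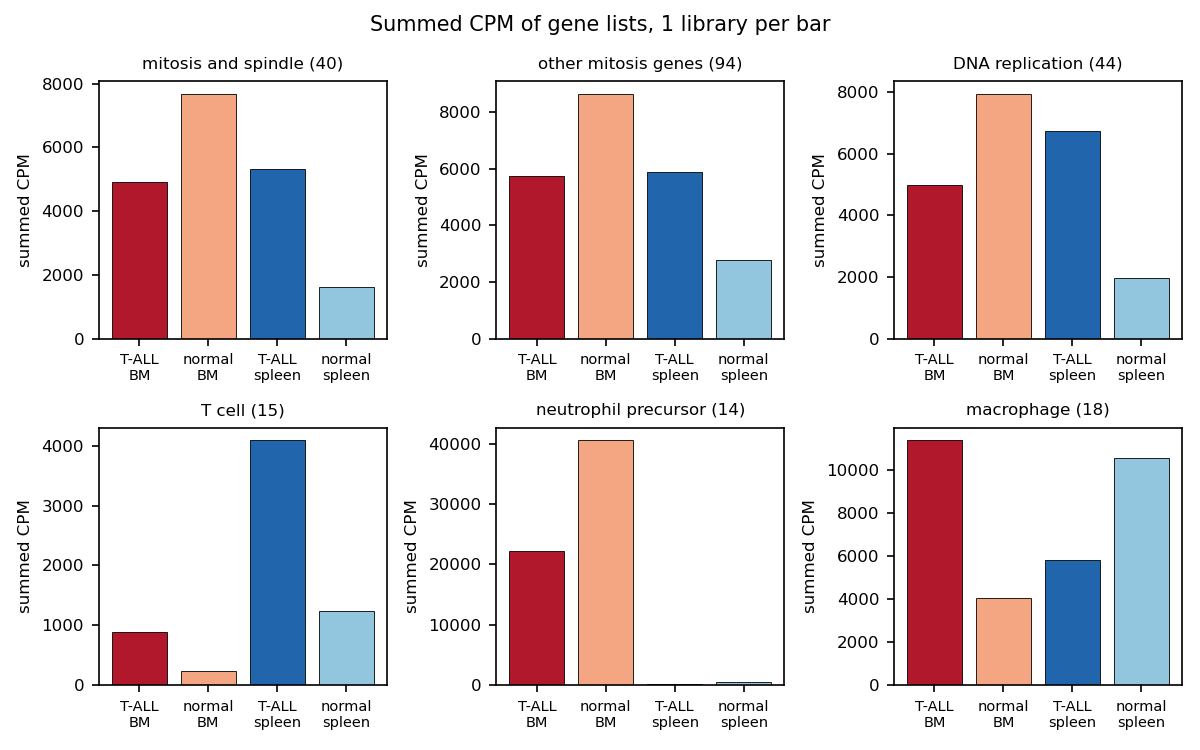
Summed CPM of 6 gene lists, 1 library per bar and the number of genes in parentheses; each panel has its own axis from 0. The 40 genes stand at 4925 and 7686 CPM in T-ALL and normal BM and at 5315 and 1616 CPM in T-ALL and normal spleen, beside T cell sums of 879, 230, 4095 and 1233 CPM and neutrophil precursor sums of 22179, 40601, 210 and 476 CPM in the same order.

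Reads of a few genes may be split with others, since the sources used here give neither the counting rule nor its use of strand. Ccnb1, Cdc20, Mad2l1 and Mki67 have pseudogene copies elsewhere in the mouse genome that match their transcripts at 95% or more over at least 200 bases, 5 of them for Ccnb1, so unique reads can undercount these genes. Another 8 genes share transcript sequence with an overlapping gene: Ccna2, Cdc25c, Kif20a, Kif4, Ncapd2, Ncapg, Nek2 and Prc1. The values of these 12 genes are uncertain to that extent.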

How the data were processed

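The deposited table of each library lists, per the file headers, a gene's length and its count of uniquely mapped reads, with coverage in percent and RPKM beside them. The deposited counts are whole and add up to the header's total; genes that a table does not list were given 0 reads. The deposited RPKM is scaled by listed length and library total. The coverage in percent deposited by the authors is taken as the share of the listed length with reads. The sources used here do not give the aligner, counting rule, build or annotation. Per the labels' protocols, a Qiagen RNeasy kit was used for the RNA and a standard Illumina protocol for the libraries.

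TMM factors were computed from the deposited counts with edgeR 4.0.16 in R 4.3.3. They were 0.991 for T-ALL BM, 1.00 for normal BM, 1.01 for T-ALL spleen and 0.996 for normal spleen. CPM were then computed in Python on library sizes multiplied by these factors. With 1 library per group no model was fitted. Log2 folds carry a pseudocount of 1 CPM, which understates the change of low genes. Ratios have exact binomial 95% intervals and shares Wilson 95% intervals; both cover counting error only and treat reads as independent, which PCR copies are not. The size rule was run on simulated counts with counting error alone and planted 4-fold changes. That run held no spread between mice and no difference in cell makeup, so it cannot check the calls made here. The text may name all 40 members and, per other list and comparison, up to 4 called genes with the largest log2 fold, or the gene with the highest level where none was called; Mertk, Spic and Marco in normal BM, the genes without reads, and genes named by list membership alone stand beside this rule. Members and lists were chosen with earlier results of these data known. The 13 lists beside the members are other mitosis, cohesin, replication, G1 and CDK inhibitor, ribosomal protein, macrophage, neutrophil precursor, T cell, thymocyte and T-ALL, B precursor, erythroid, progenitor and dendritic genes. Start windows are from RefSeq (GRCm38.p6); transcript copies were sought with blastn 2.17.0 in GENCODE transcripts. Alternatives were scaling by total or by median of ratios, a pseudocount of 0.1 or 5, minimums of 0, 1 and 50 CPM, deposited RPKM with a minimum of 5, thresholds of 1.5-fold and 4-fold and, added after the data were seen, ribosomal protein scaling. Other tools were matplotlib 3.10.9, scipy 1.17.1, numpy 2.4.6, pandas 2.3.3 and Python 3.11.15.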

Additional observations from a re-analysis of the deposited data

Results flagged for a closer look

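The difference between T-ALL and normal libraries in mitosis and spindle genes had opposite signs in spleen and bone marrow. The median over the 40 genes of the log2 fold in the spleen minus that in bone marrow was 2.56, and 39 of the 40 genes were above normal in T-ALL spleen and below normal in T-ALL bone marrow, each from 1 library per group. Pttg1, securin, went the other way, at -0.47 for the same quantity, with a log2 fold of -0.37 in the spleen and 0.10 in bone marrow. The difference was not tested in either case, because no group has a replicate.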

How the results depend on the processing

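No paired analysis was possible because each group has 1 library, and for the same reason no library could be left out of a group. The directions of the spleen, bone marrow and normal organ medians held under all settings tried. The median log2 fold in T-ALL against normal bone marrow was -0.69 with total scaling, with median-of-ratios scaling and with a minimum of 50 CPM, -0.64 with a pseudocount of 5 and -0.56 with ribosomal protein scaling, and 28 genes were called at 1.5-fold. In T-ALL against normal spleen it was 1.94 with median-of-ratios scaling, 1.95 and 1.64 with pseudocounts of 0.1 and 5, 1.76 on deposited RPKM and 1.53 with ribosomal protein scaling, and 16 genes were called at 4-fold. In normal spleen against normal bone marrow it was -2.57 and -2.34 with pseudocounts of 0.1 and 5, -2.40 on RPKM and -2.48 with ribosomal protein scaling. In T-ALL spleen against T-ALL bone marrow it was 0.20 with total scaling, 0.23 with median-of-ratios scaling and -0.27 with ribosomal protein scaling, a reversal; 2 genes were called at 1.5-fold (Nek2 higher, Anln lower) and 1 with ribosomal protein scaling (Anln lower, where 20.1% of all genes were). Ribosomal protein scaling moved the median log2 fold of all genes by 0.11, -0.36, 0.03 and -0.44 in the 4 comparisons in the order above, and left 38 of the 40 genes below normal bone marrow in T-ALL bone marrow, with Cdc25b no longer among them. Under it 535 genes were called higher and 2168 lower in T-ALL spleen against normal spleen, in place of 1008 and 1080, and 288 higher and 1992 lower in T-ALL spleen against T-ALL bone marrow, in place of 536 and 1086. The cause was not tested. Summed CPM of the 40 genes was 4856 in T-ALL bone marrow and 5443 in T-ALL spleen with median-of-ratios scaling; with ribosomal protein scaling it was 5543 in T-ALL bone marrow, 8008 in normal bone marrow, 4379 in T-ALL spleen and 1719 in normal spleen, so that the spleen ratio was 2.55 and T-ALL spleen was 1.27-fold below T-ALL bone marrow. On RPKM the ratio of mitosis to replication genes was 0.677 in T-ALL bone marrow, 0.682 in normal bone marrow, 0.559 in T-ALL spleen and 0.565 in normal spleen, so its small difference between T-ALL and normal bone marrow changed direction. In only the 150 bases before the start, TTTGAA stood in 42.9% of member windows (9.07% of all) and CCAAT in 80% (24.5% of all). TTTGAA with CCAAT stood in 37.1% (2.24% of all), and TTCGAA in 2.86%, 1 of 35 windows (0.667% of all). Depth limited Cdc25c and Ttk most, with 25 and 44 reads in normal spleen.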
